A study of Mus musculus with 6 samples.

Results

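The genes described here are 10 genes of the bone morphogenetic protein (BMP) pathway in C2C12 cells, a mouse myoblast line that fuses into myotubes when serum is lowered. They are the inhibitor of DNA binding genes Id1, Id2, Id3 and Id4, the inhibitory Smads Smad6 and Smad7, the ligand Bmp4, the receptors Bmpr1a and Bmpr2, and the secreted antagonist Grem1. They were taken by symbol from a table of raw RNA sequencing counts, which held all 10 of them among 43074 symbols. All 10 passed the filter on low counts, as did 17433 symbols in all. The study compared 3 groups of 2 libraries, all from wild-type C2C12 cells. Day 0 cells were untreated. Day 4 cells had spent 4 days in low-mitogen medium (5% horse serum) that held DMSO, the vehicle, or 1 mM 4-phenylbutyric acid (4-PBA), an aromatic fatty acid used as a chemical chaperone and histone deacetylase inhibitor. The growth medium held 10% fetal bovine serum. C2C12 is a single immortal line, so the libraries sample cultures of 1 cell population. Nothing in the labels ties the replicates to separate cultures, so the spread between these libraries may be technical. The p-values measure that spread, estimated largely from all tested genes together and not from each gene alone.

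BMP ligands such as Bmp4 bind pairs of type I receptors (Bmpr1a) and type II receptors (Bmpr2), which phosphorylate the Smad1, Smad5 and Smad9 transducers. These enter the nucleus with Smad4 and switch on Id1, Id2 and Id3 and the genes of 2 inhibitory Smads that feed back on the receptors. Id proteins carry a helix-loop-helix domain but no basic DNA-binding region. They pair with the E proteins (Tcf3, Tcf4 and Tcf12) and keep them from working with Myod1 and Myog at muscle genes. BMP treatment is known to hold C2C12 cells back from myotube formation and turn them toward bone, and gremlin 1 blocks BMP4 outside the cell.

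The 4 Id genes are paralogs, and a stretch of coding sequence that is much alike among them is shown to make clear which letters tell their reads apart. In-frame windows of 90 coding bases of Id1 were placed without gaps at their best match in each other gene (GENCODE M21, GRCm38). The window with the most bases identical in all 4 genes is shown, with those 54 bases in capitals.
Id1, chr2:152736557-152736646, plus strand: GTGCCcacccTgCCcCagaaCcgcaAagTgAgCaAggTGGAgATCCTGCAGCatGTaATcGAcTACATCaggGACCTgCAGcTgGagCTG
Id2, chr12:25095774-25095863, minus strand: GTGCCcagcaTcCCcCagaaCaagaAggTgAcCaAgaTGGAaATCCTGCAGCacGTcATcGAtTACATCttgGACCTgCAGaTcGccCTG
Id3, chr4:136144041-136144130, plus strand: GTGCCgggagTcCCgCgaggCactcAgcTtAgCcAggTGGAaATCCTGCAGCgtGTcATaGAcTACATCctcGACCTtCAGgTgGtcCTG
Id4, chr13:48261732-48261821, plus strand: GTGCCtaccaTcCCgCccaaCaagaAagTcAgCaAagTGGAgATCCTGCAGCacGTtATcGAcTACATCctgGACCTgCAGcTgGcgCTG
Within it Id1 and Id4 matched at 82.2% of bases and Id1 and Id3 at 66.7%. None of the 45 pairs of the 10 genes shared a run of 50 bases between their annotated transcripts, so no stretch of that length is common to any pair. Exons of Id4, Bmp4 and Bmpr1a overlap genes on the opposite strand over 253, 89 and 290 bases. The strand setting of the counting is not given in the sources used here, so the values of these 3 genes are uncertain to that extent.

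Promoter windows from RefSeq (GRCm38.p6) ran from 250 bases before to 50 bases after the annotated start. They were given for 8 of the 10 genes and were searched on both strands for letters known from BMP-responsive genes. No window was given for Id1 or Smad7, so these genes were not searched. The palindrome GTCTAGAC, to which Smad proteins bind, was in 1 of the 8 windows, that of Smad6, and in 0.213% of all 32851 windows. It ran from base -4 to base 4 around the start, with the first transcribed base as 1, and is in capitals in the minus-strand sequence at chr9:64022052-64022081, which GENCODE M21 partly annotates as a Smad6 exon.
Smad6: ccgcggagccgccaaagtGTCTAGACtggc
The GC-rich core GGCGCC was in 5 of the 8 windows (Id2, Id4, Bmpr1a, Bmpr2 and Grem1) and in 11.9% of all windows. The 8 windows held 59.3% to 79.3% G and C, above the median of 52.7% over all windows, and the part of base composition in these matches was not tested. The core did not go with the direction of change: Bmpr1a and Bmpr2 rose from day 0 to DMSO, and Id3, which fell more than Id2, had no match. Any relation of the core to these changes was not tested. As examples, 2 matches are shown with the core in capitals. They are Id2 at chr12:25096305-25096334 (minus strand, in an Id2 intron of GENCODE M21) and Grem1 at chr2:113758708-113758737 (minus strand, intergenic there).
Id2: caggccccctgGGCGCCcagcgcacactgt
Grem1: gcggcggcgacGGCGCCtgaccaatggaga
The longer BMP response element, in which such a core is followed by GTCT, was in 0 of the 8 windows and in 0.244% of all windows. The E-box CANNTG, the site of E proteins and myogenic factors, was in the windows of Id2, Smad6 and Bmp4 and in 72.3% of all windows. Since NF-κB and Egr1 are named in the title of the series, their words were searched too. The Egr1 word GCGNGGGCG had 2 matches in the window of Id4 and 0 in those of the other 7 genes (5.55% of all windows), and the κB consensus had 0 in the 8 (4.51%). These are matches of letters only, and no match of 1 word overlapped a match of another.

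Total counts ranged from 47908926 to 74697397 per library, and the biological coefficient of variation common to all genes was 3.74%. Levels are CPM values (counts relative to library size, after TMM scaling), and tests are edgeR quasi-likelihood tests over all 17433 genes with Benjamini-Hochberg adjustment, called at an adjusted p under 0.05. Of the muscle markers Myod1, Myf5, Des, Myog, Ckm and Myh3, summed levels rose from between 1050 and 1060 CPM at day 0 to between 4580 and 4830 CPM at day 4, with no overlap between day 0 and day 4. The 6 proliferation markers summed to 1790 and 1830 CPM at day 0, then 565 and 489 CPM under DMSO and 606 and 614 CPM under 4-PBA. All 6 were higher in both 4-PBA libraries than in both DMSO libraries, and edgeR called Pcna (log2 fold change 0.18, adjusted p 0.00117) and Ccna2 (0.21, adjusted p 0.0320). Over all tested genes, 45.5% did not overlap between these 2 groups and 4.90% were called. Of the bone markers, Sp7, Alpl, Bglap and Ibsp stayed at or below 0.256 CPM in every library, while Runx2 lay between 51.6 and 81.0 CPM. Most markers of other cell types were low: the 3 endothelial and 3 epithelial markers and the leukocyte markers Ptprc and Csf1r were at or below 0.564 CPM in every library, as were Adipoq, Fabp4 and Plin1 of the 4 adipocyte markers. Cd68 had 5.47 and 5.31 CPM at day 0 and fell 2.86-fold under DMSO (edgeR adjusted p 4.51e-07). Pparg had 18.8 and 16.9 CPM at day 0 and fell 2.23-fold (adjusted p 1.41e-13). Both thus fell beside the Id genes, and their part in those values was not tested. In bulk RNA, fewer cells that express a gene and less RNA of it per cell cannot be told apart, and this holds for every level below.

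From day 0 to day 4 with DMSO the Id genes, the inhibitory Smads and Grem1 fell, and Bmp4 and both receptors rose. These 2 groups differ at once in time, medium, vehicle and state of differentiation, so the parts of these cannot be told apart. Against day 0, 7 of the 10 genes were lower and 3 higher, and in each the libraries of the groups did not overlap. Over all tested genes 66.3% were called in this comparison, 32.6% lower and 33.8% higher, and 81.9% did not overlap, so being called is itself common here. The median log2 fold change of the 10 was -1.52, against 0.023 over all genes.

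Id1 stood at 56.0 and 57.9 CPM at day 0, then 9.84 and 11.7 CPM under DMSO and 12.3 and 12.9 CPM under 4-PBA. Both day 0 libraries lay far above all 4 day 4 libraries. With DMSO it fell 5.27-fold, a log2 fold change of -2.40 (SE 0.071, adjusted p 1.51e-25), and 1.5% of tested genes had a lower log2 fold change. Id3 followed closely, with 81.4 and 79.1 CPM at day 0, then 16.2 and 14.4 CPM under DMSO and 15.2 and 13.6 CPM under 4-PBA. Its fall with DMSO was 5.26-fold (log2 fold change -2.40, SE 0.061, adjusted p 2.81e-27). Id2 stood at 41.4 and 44.1 CPM at day 0, then 11.0 and 9.53 CPM under DMSO and 8.01 and 8.20 CPM under 4-PBA. With DMSO it fell 4.17-fold (log2 fold change -2.06, SE 0.076, adjusted p 5.43e-23).

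Id4, a member better known from the nervous system, was close to the limit of detection. It had 22 and 26 counts at day 0, then 0 and 6 under DMSO and 5 and 7 under 4-PBA, at most 0.453 CPM. Both day 0 libraries were above all day 4 libraries, and edgeR called the fall with DMSO (adjusted p 5.51e-04) and with 4-PBA (adjusted p 0.0104), but with so few counts the size of the fall is poorly set.

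**Figure D1:**
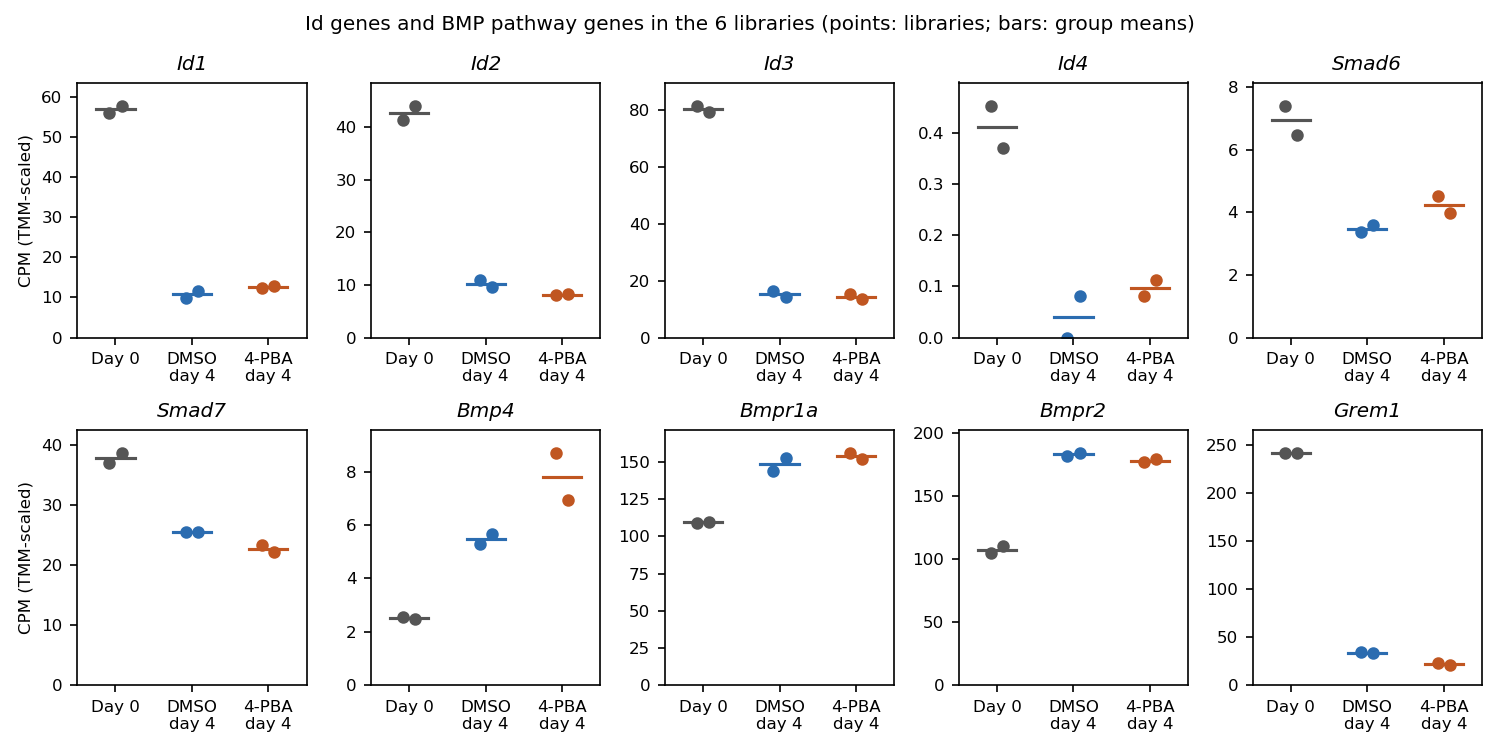
CPM of each gene in the 6 libraries (points) with the group mean (bar), on linear axes that start at 0 and differ between genes. Id1, Id2, Id3 and Grem1 drop steeply from day 0 to day 4 in all libraries, and Bmp4 and both receptors rise; Bmp4 is higher again, and Grem1 lower again, in both 4-PBA libraries.

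Expressed per kilobase of exon (FPKM), so that genes can be compared, the 3 abundant Id genes had the day 0 order Id1 (49.1 ± 1.13, SD, n = 2), Id3 (44.8 ± 0.899) and Id2 (17.5 ± 0.800), with Id4 at 0.107 ± 0.015. With DMSO, Id1 (9.29 ± 1.13) and Id3 (8.54 ± 0.693) lay within their spread of each other and Id2 was at 4.22 ± 0.440. The summed FPKM of the 4 Id genes was 111 and 112 at day 0, then 22.0 and 22.1 under DMSO and 22.4 and 22.1 under 4-PBA. The sum was thus about as high in both day 4 groups. The sum, the order and the shares rest on the exon lengths used. With the longest transcript of each gene, the group means of the sum were 134 (day 0), 26.5 (DMSO) and 26.3 (4-PBA). In mean CPM, Id3 (80.3) stood above Id1 (57.0) at day 0. The shares of the Id genes in the sum were as follows. Id2 made up 20.6% and 17.7% of it with DMSO and 14.7% and 15.2% with 4-PBA. Id1 made up 38.5% and 45.7% with DMSO and 47.4% and 50.2% with 4-PBA. Id3 overlapped, with 41.0% and 36.5% against 37.8% and 34.5%. These sums and shares were not tested; an exact permutation test of 2 libraries against 2 cannot give a p below 0.333.

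The E proteins, the partners that Id proteins sequester, moved far less. With DMSO, Tcf4 rose by 0.95 on the log2 scale (SE 0.034, adjusted p 1.77e-23), Tcf12 rose by less (0.27, SE 0.033, adjusted p 4.70e-09), and Tcf3 fell by 0.39 on the log2 scale (SE 0.034, adjusted p 1.88e-12). The summed FPKM of these 3 genes was 67.0 and 64.2 at day 0, then 58.9 and 58.5 under DMSO and 59.9 and 60.9 under 4-PBA. The ratio of E protein to Id transcripts therefore went from 0.604 and 0.572 at day 0 to 2.67 and 2.65 with DMSO, and stood at 2.67 and 2.76 with 4-PBA. The level of this ratio depends on the lengths used: with the longest transcript of each gene the group means were 0.800, 4.01 and 4.13. The E protein sum depends on them too, as Tcf4 was divided by 27382 bases of exon, Tcf12 by 15529 and Tcf3 by 4039. From day 0 to DMSO, mean CPM went from 102 to 198 for Tcf4, from 147 to 178 for Tcf12 and from 212 to 162 for Tcf3. The direction of the sum is therefore not read.

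**Figure D2:**
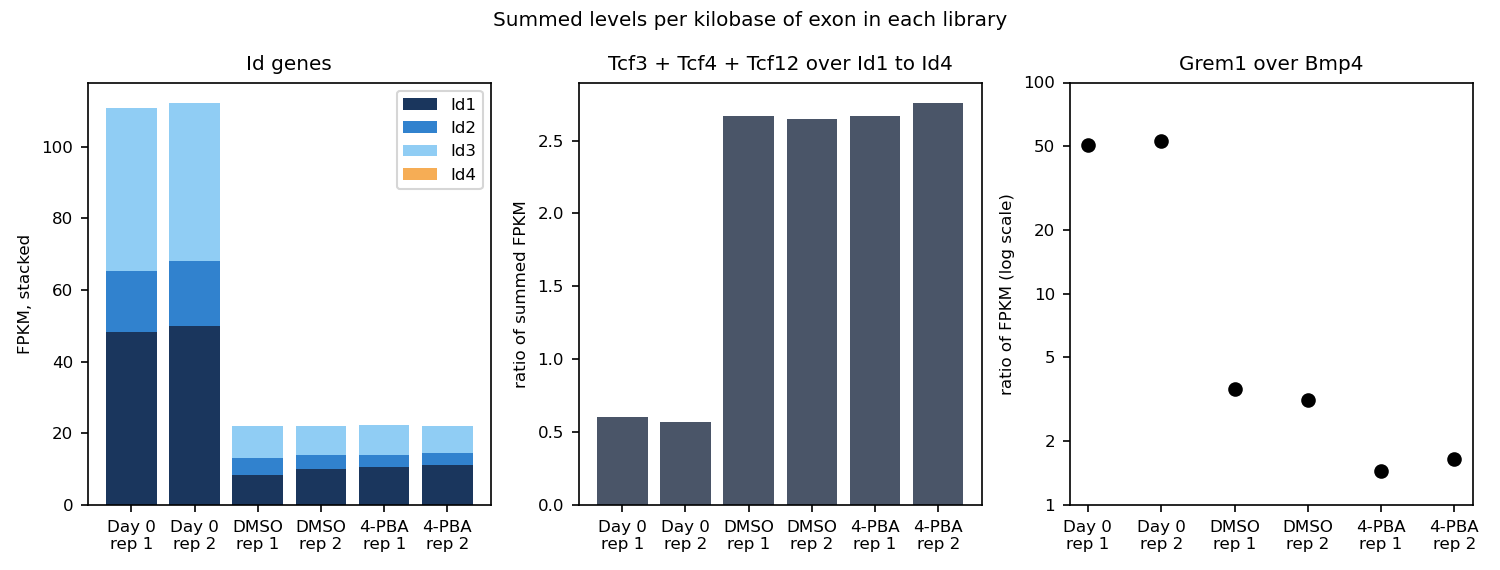
Stacked FPKM of Id1 to Id4 (left), the ratio of summed E protein FPKM to summed Id FPKM (middle, axis from 0) and the ratio of Grem1 to Bmp4 FPKM on a log axis (right), 1 bar or point per library. The Id sum is near 22 in all 4 day 4 libraries, and the Grem1 to Bmp4 ratio is lower in both 4-PBA libraries (1.45 and 1.65) than in both DMSO libraries (3.54 and 3.14).

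The genes whose centred log2 CPM profile over the 6 libraries lay nearest to Id1 were Mt1, Aldh3a1 and Ccne2 (Euclidean distances 0.167, 0.212 and 0.237). Those nearest to Id2 were Ccnd1, Gm12602 and Slc5a3 (0.140, 0.205 and 0.230), and those nearest to Id3 were Orc1, Plaur and Cobll1 (0.120, 0.163 and 0.185). Nearest to Id4 were Mt2, Mt1 and Aldh3a1, at 1.29, 1.41 and 1.44. Id4 lay far below the 5 CPM asked of a neighbour, so genes of its level were left out and its distances are not read. Only genes with a mean of at least 5 CPM were considered, and the distances mostly reflect the drop from day 0 to day 4.

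The inhibitory Smads fell less than the Id genes. Smad6, which competes for activated BMP-type Smads, had 7.41 and 6.47 CPM at day 0, then 3.36 and 3.60 CPM under DMSO and 4.51 and 3.98 CPM under 4-PBA. All 4 day 4 libraries were below both day 0 libraries, and the fall with DMSO was 1.98-fold (log2 fold change -0.99, SE 0.137, adjusted p 7.92e-08). Smad7, which blocks both BMP and TGF-β receptors, had 37.0 and 38.6 CPM at day 0, then 25.4 and 25.5 CPM under DMSO and 23.3 and 22.1 CPM under 4-PBA. With DMSO it fell 1.49-fold (log2 fold change -0.57, SE 0.060, adjusted p 1.78e-10), with no overlap between day 0 and day 4. Per kilobase of exon Smad7 was the more abundant of the pair, at 8.36 ± 0.246 against 2.16 ± 0.207 FPKM (SD, n = 2) at day 0.

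The ligand and the receptors moved the other way. Bmp4 had 2.57 and 2.46 CPM at day 0, then 5.28 and 5.68 CPM under DMSO and 8.70 and 6.94 CPM under 4-PBA. The 3 groups did not overlap, and the rise with DMSO was 2.18-fold (log2 fold change 1.13, SE 0.146, adjusted p 2.09e-08). The type I receptor Bmpr1a rose from 109 and 110 CPM to 144 and 153 CPM with DMSO, by 0.44 on the log2 scale (SE 0.036, adjusted p 4.32e-13), and it had 156 and 152 CPM with 4-PBA. The type II receptor Bmpr2 rose from 105 and 110 CPM to 182 and 184 CPM with DMSO (0.77, SE 0.034, adjusted p 1.66e-20), and it had 177 and 179 CPM with 4-PBA.

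Apart from Id4, Grem1 had the largest fall of the 10 genes. It stood at 241 CPM in both libraries of untreated cells, at 34.5 and 32.9 CPM under DMSO and at 23.3 and 21.1 CPM under 4-PBA, with no overlap between any of the 3 groups. The fall with DMSO was 7.15-fold (log2 fold change -2.84, SE 0.043, adjusted p 2.82e-34), and 0.935% of tested genes had a lower log2 fold change. Per kilobase of exon, Grem1 exceeded Bmp4 by 50.8 and 53.1 times at day 0 and by 3.54 and 3.14 times with DMSO.

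Adding 4-PBA changed few of these genes relative to vehicle. Of the 10 genes, Grem1 and Id2 were lower with 4-PBA, Bmp4 was higher, and 7 were not called. Over all tested genes 4.90% were called, 2.78% lower and 2.13% higher. The groups did not overlap for 7 of the 10, against 45.5% of all genes. The median log2 fold change of the 10 was 0.0031 and that of all genes 0.0021.

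Grem1 fell by 0.60 on the log2 scale (SE 0.047, 95% interval -0.698 to -0.505), from 33.7 ± 1.13 to 22.2 ± 1.55 CPM (SD, n = 2), or 1.52-fold. The edgeR adjusted p was 2.20e-10, and the gene ranked 2 of 17433 by p in this comparison. The call was kept when any 1 library was left out, with log2 fold changes from -0.674 to -0.531, and under every other setting tried. Bmp4, which gremlin 1 binds, had 5.48 ± 0.281 CPM with DMSO and 7.82 ± 1.24 CPM with 4-PBA, a rise of 0.51 on the log2 scale (SE 0.128, 95% interval 0.252 to 0.773, adjusted p 0.0124). This call rested on single libraries: without 4-PBA replicate 1 the log2 fold change was 0.341 (adjusted p 0.352) and without DMSO replicate 1 it was 0.461 (adjusted p 0.0570). The Grem1 to Bmp4 ratio per kilobase was 1.45 and 1.65 with 4-PBA, below both DMSO libraries.

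Id2 fell by 0.34 on the log2 scale, from 10.3 ± 1.07 to 8.10 ± 0.136 CPM (SE 0.086, 95% interval -0.515 to -0.167, adjusted p 0.0125). Both 4-PBA libraries lay below both DMSO libraries. The call was lost without DMSO replicate 1 (-0.235, adjusted p 0.145), without 4-PBA replicate 1 (-0.323, adjusted p 0.133) or replicate 2 (-0.358, adjusted p 0.0851), with limma-voom (adjusted p 0.0761) and in a fit of the 4 day 4 libraries alone (adjusted p 0.0581).

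Id1 was not called over all libraries (log2 fold change 0.22, SE 0.078, 95% interval 0.062 to 0.378, adjusted p 0.100), although both 4-PBA libraries lay above both DMSO libraries. Without DMSO replicate 2 it was called (0.356, adjusted p 0.00371), and without DMSO replicate 1 it stood at 0.104 (adjusted p 0.605). Of the DMSO libraries, replicate 1 had more of the summed proliferation markers (565 against 489 CPM), less Id1 (9.84 against 11.7 CPM) and more Id2 (11.0 against 9.53 CPM) and Id3 (16.2 against 14.4 CPM). The part of cycling cells in the Id values was not tested. Id3 overlapped between the groups (log2 fold change -0.083, 95% interval -0.221 to 0.056, adjusted p 0.612). The interval of Id4, from -0.779 to 3.04, was too wide to read a direction. Whether Id1 and Id2 differed from each other in their response to the drug was not tested.

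Smad6 (log2 fold change 0.28, 95% interval -0.0030 to 0.572, adjusted p 0.308) and Smad7 (-0.16, 95% interval -0.290 to -0.039, adjusted p 0.130) were not called, though in each the libraries of the 2 groups did not overlap. Bmpr1a (0.049, 95% interval -0.022 to 0.121, adjusted p 0.540) and Bmpr2 (-0.043, 95% interval -0.111 to 0.025, adjusted p 0.581) had narrow intervals around 0. For these 2 receptors, changes beyond 0.121 on the log2 scale in either direction lay outside the intervals.

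**Figure D3:**
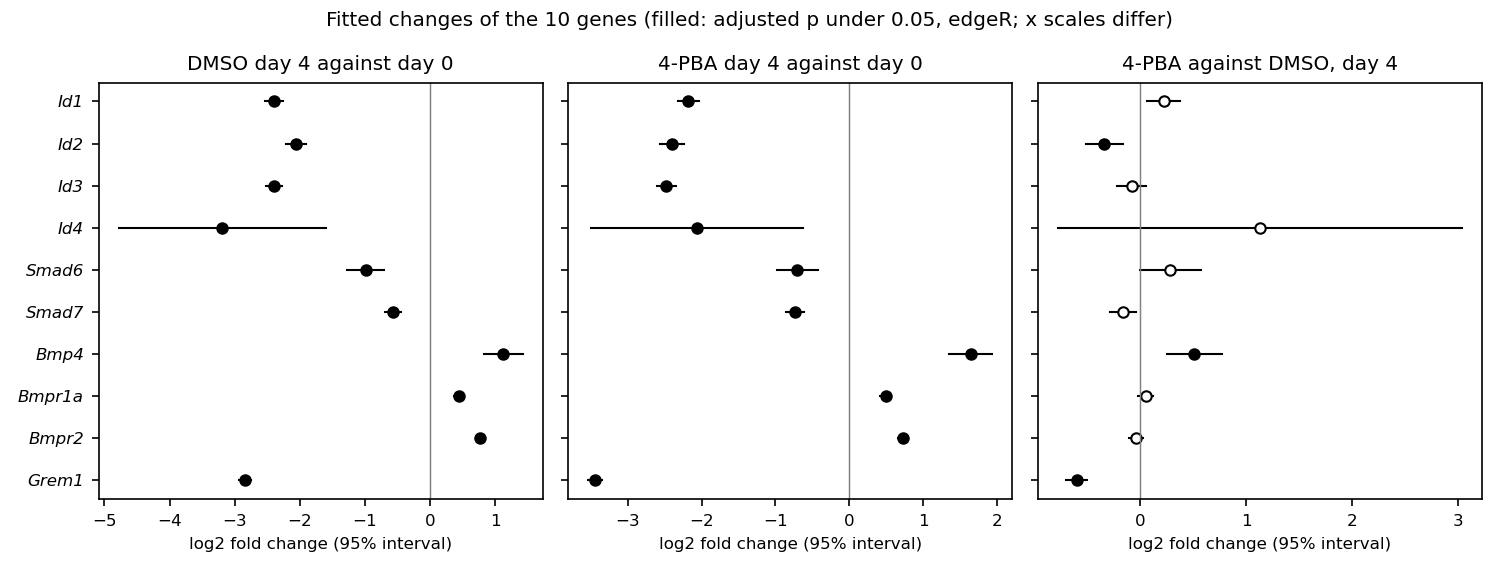
Log2 fold changes of the 10 genes with 95% intervals in the 3 comparisons, where filled points passed an adjusted p under 0.05 and the horizontal scales differ. All 10 genes changed from day 0 to day 4 with either treatment, and between 4-PBA and DMSO only Id2, Bmp4 and Grem1 are filled.

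Against day 0, the 4-PBA libraries gave the same 7 falls and 3 rises, where 65.6% of all genes were called, 32.4% lower and 33.2% higher. This comparison shares its day 0 libraries with that of DMSO, so the values are given side by side and not as separate support. Grem1 was 10.9-fold lower than at day 0 with 4-PBA and 7.15-fold lower with DMSO. Bmp4 was 3.11-fold higher with 4-PBA and 2.18-fold higher with DMSO. Id2 was 5.28-fold lower with 4-PBA and 4.17-fold lower with DMSO, and Id1 was 4.53-fold and 5.27-fold lower. The call of Id4 was lost without day 0 replicate 1 (adjusted p 0.0831) or without 4-PBA replicate 1 (adjusted p 0.0928).

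The other genes of the pathway were taken from 7 lists by role, 61 genes in all, of which 47 passed the filter. Between DMSO and day 0, 27 of the 47 rose and 7 fell, beside 33.8% and 32.6% of all genes, and their median log2 fold change was 0.51.

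Among the ligands, 4 of 12 genes passed the filter and 3 rose, all from very low levels. Gdf5 went from 0.049 ± 0.011 to 2.08 ± 0.340 CPM (SD, n = 2; adjusted p 1.41e-13), Gdf6 from 0.057 ± 0.081 to 1.12 ± 0.169 CPM (adjusted p 2.31e-08) and Bmp8a from 0.258 ± 0.043 to 1.87 ± 0.090 CPM (adjusted p 3.07e-10). Of the 9 receptors and co-receptors, 5 rose and none fell with edgeR (also none at an unadjusted p under 0.05, with DESeq2 or with limma-voom). Hjv, the muscle and liver co-receptor hemojuvelin, rose 47.7-fold, from 1.69 ± 0.233 to 81.8 ± 4.82 CPM, or by 5.58 on the log2 scale (SE 0.078). The related co-receptor Rgma rose 7.10-fold (2.83, SE 0.052) and the type I receptor Bmpr1b rose 2.73-fold to 1.47 ± 0.158 CPM. Acvr1, Acvrl1, Acvr2b and Eng were not called.

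Of the 4 transducers, Smad9 fell 6.83-fold, from 3.73 ± 0.316 to 0.550 ± 0.186 CPM (adjusted p 7.37e-12), while Smad4 rose slightly (log2 fold change 0.095, adjusted p 0.0344). The Smad4 call was lost with DESeq2 (adjusted p 0.11), DESeq2 size factors in edgeR (0.055), library size only (0.138) and the 4 libraries compared alone (0.0552). It was also lost without day 0 replicate 1 (log2 fold change 0.108), day 0 replicate 2 (0.0801) or DMSO replicate 2 (0.0951). Smad1 (0.099, adjusted p 0.180) and Smad5 (0.051, adjusted p 0.239), which were far more abundant than Smad9 in CPM, were not called. Of 10 tested extracellular antagonists and modulators, 7 rose and none fell with edgeR (also none at an unadjusted p under 0.05, with DESeq2 or with limma-voom). Chrd, which encodes chordin, rose 7.81-fold to 35.3 ± 0.908 CPM, Fst, which encodes follistatin, an antagonist of activins and of some BMPs, rose 7.51-fold to 56.9 ± 1.69 CPM, and Nog, which encodes noggin, rose 2.39-fold to 6.91 ± 0.407 CPM. Grem1 thus fell while these 3 other antagonists rose.

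Of 7 other inhibitors, 5 rose and 1 fell. Skil, which encodes the Smad corepressor SnoN, rose 1.92-fold (log2 fold change 0.94, SE 0.038), the antiproliferative gene Tob1 rose 1.55-fold (0.64, SE 0.047), and Tob2 fell 1.62-fold (-0.70, SE 0.051). Of 6 other BMP response genes, 3 fell and 2 rose. The transcription factor genes Atoh8 (5.11-fold, from 6.25 ± 0.201 to 1.22 ± 0.284 CPM) and Msx2 (4.81-fold, from 2.79 ± 0.385 to 0.578 ± 0.035 CPM) both fell. Hey1, also a Notch target, rose 1.49-fold. Of the E proteins and myogenic factors, 4 rose and 2 fell, with Myog, the factor that drives terminal differentiation, rising 36.4-fold and Myf5, a marker of undifferentiated myoblasts, falling 2.20-fold.

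**Figure D4:**
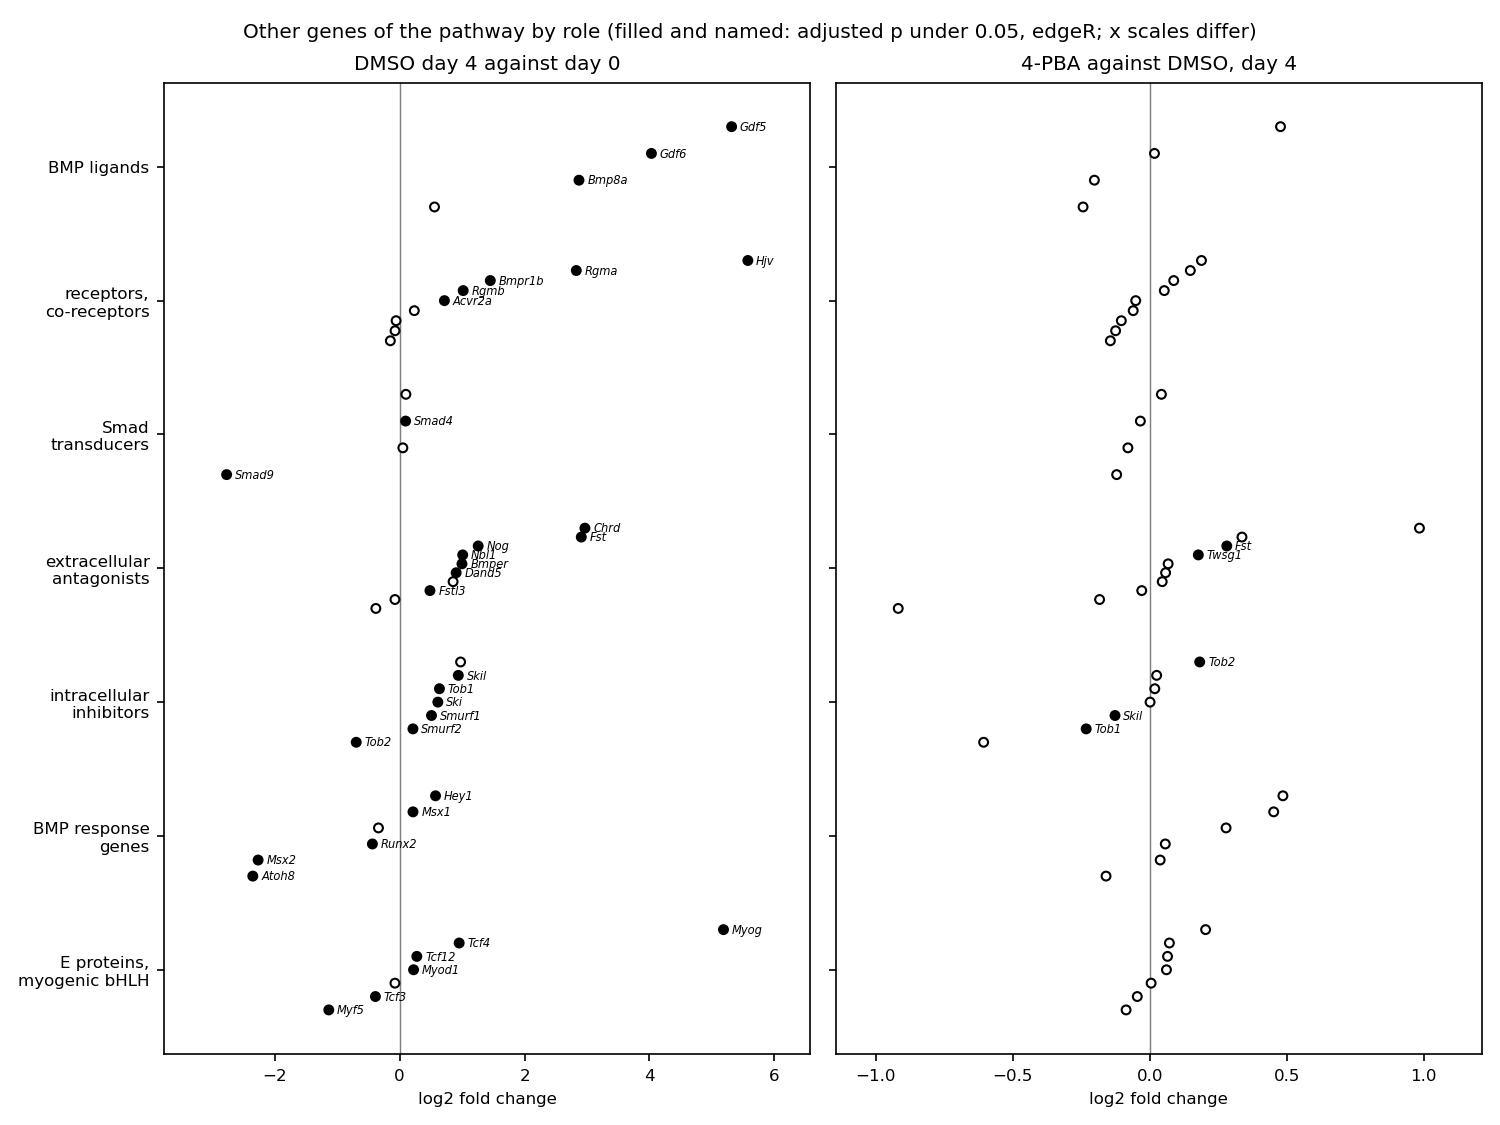
Log2 fold changes of the 47 tested genes of the 7 role lists, 1 point per gene, between DMSO and day 0 (left) and between 4-PBA and DMSO (right), with filled and named points for an adjusted p under 0.05 and different horizontal scales. Receptors and antagonists lie mostly to the right on the left panel, and 5 points are filled on the right panel.

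Between 4-PBA and DMSO, 3 of the 47 genes rose and 2 fell, beside 2.13% and 2.78% of all genes. Fst rose by 0.28 on the log2 scale, from 56.9 ± 1.69 to 69.2 ± 1.76 CPM (SE 0.053, adjusted p 8.50e-04), and Twsg1, a secreted BMP-binding modulator, rose from 96.7 ± 3.20 to 109 ± 0.588 CPM (0.18, SE 0.037, adjusted p 0.00271). Tob1 fell from 69.6 ± 1.44 to 59.3 ± 2.90 CPM (-0.23, SE 0.046, adjusted p 0.00140), Tob2 rose (0.18, SE 0.051, adjusted p 0.0299), and Skil fell (-0.13, SE 0.037, adjusted p 0.0407). Without 4-PBA replicate 2 Tob1 alone of these 5 was called, and without 4-PBA replicate 1 Fst, Twsg1 and Tob2 were. The calls of Skil and Tob2 were the least stable of the 5. Skil was also lost with the replicate block (adjusted p 0.0627), library size only (0.0567), DESeq2 (0.0953), limma-voom (0.0553), without day 0 replicate 1 (0.0622) or 2 (0.0579) and without DMSO replicate 1 (0.245). Tob2 was also lost with DESeq2 (0.0577), limma-voom (0.0511), the 4 day 4 libraries alone (0.0546), without day 0 replicate 1 (0.0546) or 2 (0.0510) and without DMSO replicate 2 (0.117). The exons of Gdf5, Rgma, Chrd, Fst, Tob2, Acvrl1, Eng and Runx2 also overlap opposite-strand genes (GENCODE M21). Hjv was not matched by symbol in that annotation, so its overlap was not checked.

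The role lists leave out the ligand Bmp4, which was called as given above. From these lists, edgeR called no ligand, receptor, transducer, other response gene, E protein or myogenic factor between the 2 day 4 groups. At an unadjusted p under 0.05 the numbers were 0 of 4 ligands, 2 of 9 receptors, 1 of 4 transducers, 3 of 6 response genes and 2 of 7 E proteins and myogenic factors, and neither DESeq2 nor limma-voom called any of them. Such p-values were common over all genes: Smad6, with an unadjusted edgeR p of 0.0523, ranked only 2960 of 17433 by p in this comparison. The response genes Hey1 (log2 fold change 0.28, adjusted p 0.0513), Atoh8 (0.49, adjusted p 0.210) and Msx2 (0.45, adjusted p 0.469) and the antagonist Nog (0.34, adjusted p 0.105) had positive values that did not pass. Runx2, also a response gene, had a negative value as close to the cutoff as that of Hey1 (-0.16, adjusted p 0.0525). The response genes Msx1 (0.038, adjusted p 0.899) and Sp7 (0.057, adjusted p 0.982) were not called either. Hey1 passed under 8 of the alternatives, among them library size only (adjusted p 0.0418), and the co-receptor Hjv passed without DMSO replicate 1 (log2 fold change -0.16, adjusted p 0.0361).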

How the data were processed

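Directional cDNA libraries were made from DNase-treated total RNA, per the labels. The authors deposited raw counts per gene symbol, 1 column for each of the 6 libraries, and the submitters' processing notes name the build GRCm39. Aligner, counting tool, annotation and strand setting are not given in the sources used here. The test was edgeR 4.0.16 (R 4.3.3): filterByExpr with the groups, TMM, 1 mean per group over all 6 libraries (3 residual degrees of freedom), estimateDisp and robust glmQLFit. The spread of each gene was moderated toward that of all tested genes (median 30.4 prior degrees of freedom). The SE is the log2 fold change divided by the square root of F. FPKM used the union of exons in GENCODE M21, whose symbols matched 36556 of those in the table. All libraries carry batch 1, so no batch term was fitted. Replicates differed by more than counting noise: chi-square divided by its degrees of freedom was 3.88 (day 0), 7.05 (DMSO) and 5.57 (4-PBA).

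The members and lists were chosen with earlier results of these data known. From the role lists the text names up to 12 genes called between 4-PBA and DMSO. Between DMSO and day 0 it names up to 3 called genes per list with the largest change and at least 1 CPM. The E proteins, Smad1, Smad5, and Nog, Atoh8, Msx1, Msx2, Hey1, Runx2 and Sp7 in the drug comparison were added after their values were seen. Alternatives were other scalings, filters and cutoffs, DESeq2 1.42.0, limma-voom (limma 3.58.1), fewer libraries and a replicate block. The fit was also run on counts simulated from the dispersions fitted to these libraries. Changes were set only in genes well above the counts of Id4, and the run is no support for the calls given here. Figures were drawn with matplotlib 3.10.9.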

Additional observations from a re-analysis of the deposited data

How the results depend on the processing

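Between DMSO and day 0, all 10 genes were called under each alternative except the stricter filter (a mean of 1 CPM, and 10 counts in both libraries of some group), which removes Id4 and left 9. Between 4-PBA and day 0, 9 were called under that filter and at an adjusted p under 0.01, and 9 to 10 when 1 library was left out. Between 4-PBA and DMSO, the 3 calls became 2 with limma-voom and with the 4 libraries compared alone, 1 at an adjusted p under 0.01, and 1 to 4 when 1 library was left out. The replicate block left 3. No value of the 10 genes changed sign. Over all genes, 855 calls became 424 at an adjusted p under 0.01 and 295 to 1194 when 1 library was left out, the lowest without 4-PBA replicate 2 (295) and 4-PBA replicate 1 (341). With library size only, 51.5% of the calls were higher, against 43.4% with TMM.

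Of the other pathway genes, 5 calls became 8 with no filter beyond 1 count, 8 with the stricter filter, 3 with DESeq2, 3 with limma-voom, 3 at an adjusted p under 0.01 and 1 to 6 when 1 library was left out. Of the 21 pathway genes named by the rule, the ones refitted gene by gene, 7 uncalled genes changed sign with 1 library left out between 4-PBA and DMSO: Smad9 (-0.446 to 0.255), Myog (-0.0451 to 0.0578), Gdf6 (-0.131 to 0.175), Bmpr1b (-0.0195 to 0.197), Smad4 (-0.00651 to 0.0912), Gdf5 (-0.46 to 0.0182) and Chrd (-0.109 to 0.0482). Where leaving out a library leaves 1 in a group, that library is assumed to vary like the other groups. Causes were not tested.

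Replicate numbers did not pair the libraries: deviations of same-numbered libraries correlated at -0.0279 (day 0 and DMSO), -0.00306 (day 0 and 4-PBA) and -0.0116 (DMSO and 4-PBA). With the replicate block 768 genes were called between 4-PBA and DMSO. Of the 10 genes and the 21 pathway genes, the block changed the call of Skil (adjusted p 0.0627) and no other. Id4 had at most 26 counts in a library; the effect of depth was not tested.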
